A study of Mus musculus with 22 samples.

Results

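The genes described here encode acute phase proteins, the plasma and secreted proteins whose amounts shift during inflammation: the serum amyloid A genes Saa1, Saa2, Saa3 and Saa4, the pentraxin gene Apcs, the alpha-acid glycoprotein genes Orm1 and Orm2, the haptoglobin gene Hp, the leucine-rich glycoprotein gene Lrg1 and the lipocalin gene Lcn2. They are 10 of the 16697 genes listed in a liver and a lung table, found by gene symbol, and were picked because several were higher in liver and some lower in lung after benzene. All 10 were read in liver. Saa3, Orm1, Lcn2, Lrg1 and Hp, 5 of the 10, were read in lung, and the other members were not analysed there. All 10 in liver and all 5 in lung passed the filter on low values. Because the comparison of benzene with air chose the genes, their differences are given as a description, with no p-value. Where members are said to be past the threshold or not, that is part of the description and not support.

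All mice were male, of the C57BL/6J background, 14 weeks old and fed normal chow. The air groups breathed air passed through carbon and HEPA filters. The benzene groups breathed 50 ppm benzene for 6 weeks, on 5 days of each week and for 6 hours of each day. Poly-A RNA was sequenced from whole liver of 5 air and 5 benzene samples and from whole lung of 6 air and 6 benzene samples. The labels number the samples without saying that each came from its own animal, so the spread between them may be partly technical.

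The acute phase response is started mainly by interleukin-6 and interleukin-1, which reach hepatocytes from activated macrophages. Interleukin-6 signals through its receptor and the shared chain gp130 to JAK kinases and STAT3, and interleukin-1 through NF-κB, and both raise the C/EBP factors that bind near acute phase genes. Hepatocytes then secrete positive acute phase proteins and make less of the negative ones, such as albumin and transthyretin. Several members are also made outside the liver: Saa3 by macrophages, fat and epithelia, Lcn2 by neutrophils and epithelia, and Lrg1 and Hp by neutrophil precursors and lung cells.

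Recovered reads ran from 9.46 to 12.71 M per liver library and from 8.30 to 11.92 M per lung library. Levels are the authors' normalized values, headed CPM (reads scaled to library size), given as mean ± SD. Changes are the difference of the group means of log2(value + 1), benzene minus air, ± SE, a scale that understates the change of genes near 0. Lung air replicate 5 stood apart, lacking any read for 894 genes against 17 to 61 in the other 5 lung air libraries, and the members' lung values are given with and without it, as are list counts and calls where it moved them. The hepatocyte markers summed to 107760 to 113140 in the air livers, and albumin (Alb) led them at 74088 ± 1705 (n = 5). In lung, Alb stood at 2.24 ± 1.52 (n = 6) in air and the surfactant gene Sftpc at 37351 ± 18483. In whole tissue, fewer cells of a type and less RNA per cell cannot be told apart.

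The 4 serum amyloid A genes lie together on chromosome 7 of the mouse genome (GRCm38), Saa3 at chr7:46711998-46715700, Saa4 at chr7:46727998-46732603 and Saa1 at chr7:46740497-46742980 on the minus strand, and Saa2 at chr7:46751790-46754313 on the plus strand. Saa1 and Saa2 encode the apolipoproteins that ride on high-density lipoprotein in inflammation. Saa3 encodes a form made mostly outside the hepatocyte, and Saa4 a form that the liver makes constantly. Their start regions are shown because Saa1, Saa2 and Saa3 stood apart from Saa4 in liver. Each window runs from 250 bases before to 50 bases after the RefSeq start (GRCm38.p6), 5′ to 3′ on the gene's strand. The windows are chr7:46742931-46743230 (Saa1, minus), chr7:46751583-46751882 (Saa2, plus), chr7:46715627-46715926 (Saa3, minus) and chr7:46732554-46732853 (Saa4, minus). Capitals mark matches on either strand to the C/EBP motif TTGCNNAA and, in Saa3, to the interleukin-6 response core CTGGGA.
Saa1: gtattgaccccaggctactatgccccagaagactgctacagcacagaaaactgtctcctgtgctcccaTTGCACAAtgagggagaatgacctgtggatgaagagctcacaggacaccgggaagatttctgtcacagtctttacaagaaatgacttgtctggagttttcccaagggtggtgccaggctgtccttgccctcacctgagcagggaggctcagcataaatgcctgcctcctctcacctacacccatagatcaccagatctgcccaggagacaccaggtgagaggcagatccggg
Saa2: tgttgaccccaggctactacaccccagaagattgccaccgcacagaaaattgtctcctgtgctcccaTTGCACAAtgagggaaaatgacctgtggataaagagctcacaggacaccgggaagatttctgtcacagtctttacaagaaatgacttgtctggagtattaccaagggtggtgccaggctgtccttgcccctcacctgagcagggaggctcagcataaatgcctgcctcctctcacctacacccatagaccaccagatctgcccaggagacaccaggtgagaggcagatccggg
Saa3: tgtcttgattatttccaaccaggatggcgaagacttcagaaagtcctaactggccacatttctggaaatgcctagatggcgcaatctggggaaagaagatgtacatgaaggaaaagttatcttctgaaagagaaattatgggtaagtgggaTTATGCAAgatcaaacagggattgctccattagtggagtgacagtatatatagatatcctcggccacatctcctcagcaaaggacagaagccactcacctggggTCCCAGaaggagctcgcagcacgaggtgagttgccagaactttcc
Saa4: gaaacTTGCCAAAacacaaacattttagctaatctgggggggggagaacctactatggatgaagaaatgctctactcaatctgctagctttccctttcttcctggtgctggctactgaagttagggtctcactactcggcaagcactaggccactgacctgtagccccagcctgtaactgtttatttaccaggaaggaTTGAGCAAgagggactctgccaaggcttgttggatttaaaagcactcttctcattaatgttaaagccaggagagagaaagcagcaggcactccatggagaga

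The windows of Saa1 and Saa2 were 96.0% identical over 299 aligned bases, and each held 1 C/EBP match, starting at -182 in Saa1 and at -183 in Saa2 relative to the start site. Saa3 was 61.0% identical to Saa1 and held its match closer to the start, at -99 on the opposite strand. Saa4 was 57.1% identical to Saa1 and held 2 matches, at -245 and at -52. Of the 8 members with a window, 6 held the C/EBP motif, against 10.8% of all 32817 windows of the same length. The interleukin-6 core was in 3 of the 8, in Saa3, Lrg1 and Apcs, against 31.8% of all windows. The STAT motif TTCNNNGAA was in 1, Apcs, against 8.29% of all. A consensus NF-κB motif was in none of the 8 (1.47% of all), nor was an HNF1 motif (0.399% of all) or a glucocorticoid response motif (0.411% of all). These are matches of letters in a short window and say nothing of binding. Members of 1 family share sequence, so their matches are not independent of each other.

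In liver, Saa1, Saa2 and Saa3 were higher in the benzene group and Saa4 was nearly level. Saa1 read 70.1, 95.8, 85.2, 97.8 and 85.7 in the air livers and 159, 119, 119.8, 211 and 141 in the benzene livers. Every benzene liver stood above every air liver, and benzene replicate 4 was the highest. The mean went from 86.9 ± 11 to 149.8 ± 37.9 (n = 5 and 5), 1.72 times the air mean, a change of 0.75 ± 0.134. Saa2 read 33.4, 39.6, 36.3, 45.7 and 37.0 in air and 62.6, 50.2, 44.3, 101 and 60.4 with benzene. Here 4 of the 5 benzene livers stood above every air liver, and benzene replicate 3 lay within the air range. The Saa2 change was 0.66 ± 0.162. Without benzene replicate 4 the change was 0.62 for Saa1 and 0.49 for Saa2.

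Saa3 was low in liver, at 3.19 ± 0.749 in air and 6.60 ± 2.73 with benzene. Its air livers read 2.37, 4.32, 3.19, 2.69 and 3.40 and rested on 27 to 40 reads each. Its benzene livers read 7.67, 5.12, 3.82, 10.8 and 5.58, and 4 of the 5 stood above every air liver. The change was 0.81 ± 0.215. Saa4 read 194, 180.1, 177, 192 and 171 in air and 194, 194, 181, 199.6 and 180.1 with benzene. The groups overlapped, with 3 of the 5 benzene livers above every air liver by a small margin, and the change was 0.05 ± 0.0662. The constantly made form of the family had the smallest SE of the 10 members in liver.

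The share of Saa2 in the sum of Saa1 and Saa2 was 29.3% to 32.3% in air and 27.0% to 32.5% with benzene. The proportion of the pair overlapped between the groups while both levels stood higher with benzene. The transcripts of Saa1 and Saa2 were 94.4% identical over 606 aligned bases, and those of Saa3 and Saa1 69.6%. No run of 150 bases was shared exactly with another gene, but a read counter could still split or drop reads between Saa1 and Saa2, so the level of each is less certain than their sum. None of the 10 members overlapped another annotated gene.

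Apcs, at chr1:172893961-172895041 on the minus strand, encodes serum amyloid P, the pentraxin that is a main acute phase protein of the mouse. It was lower with benzene, the reverse of Saa1. The air livers read 65.4, 73.1, 72.4, 72.8 and 77.6, and the benzene livers 60.2, 58.2, 62.7, 73.8 and 58.5. Of the benzene livers, 4 of 5 stood below every air liver, and benzene replicate 4 stood above 4 of the 5 air livers. The change was -0.21 ± 0.0832, and -0.27 without benzene replicate 4.

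**Figure D1:**
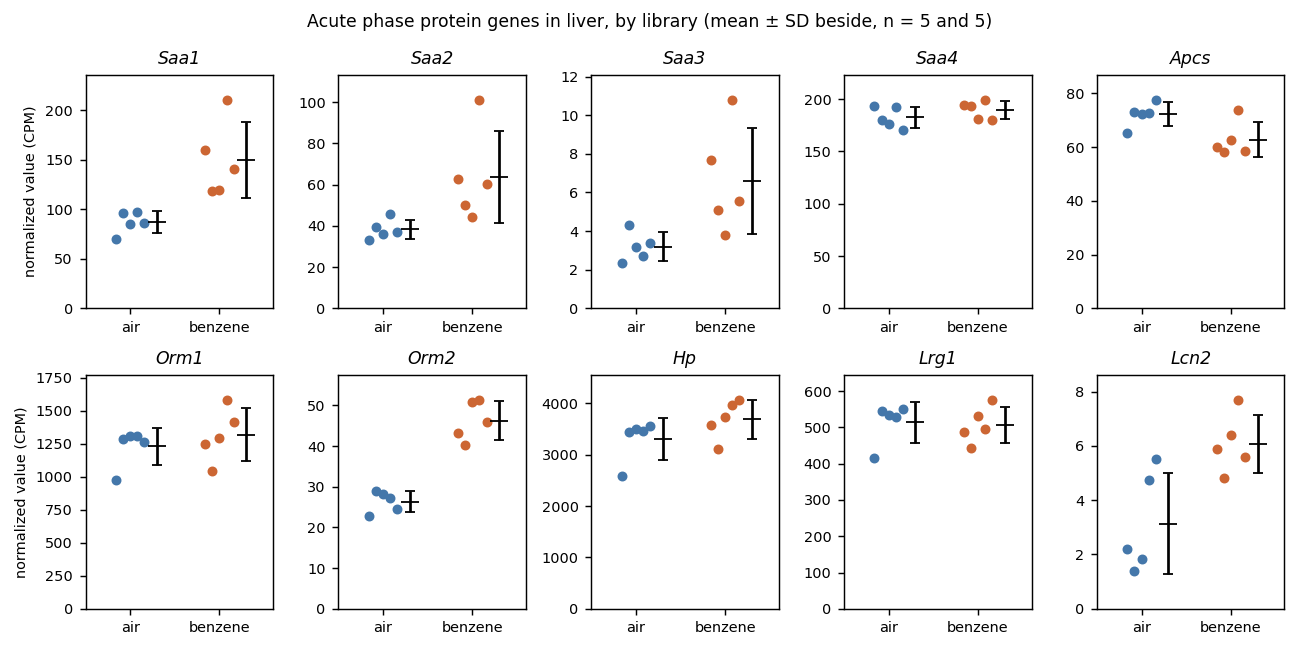
Normalized value (CPM) of each of the 10 genes in each liver library, with the group mean ± SD beside the points (n = 5 air and 5 benzene). Saa1 and Orm2 have every benzene liver above every air liver, while Saa4, Orm1 and Lrg1 overlap broadly.

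The alpha-acid glycoproteins bind basic drugs and lipids in plasma. Orm1 (chr4:63344560-63348163) and Orm2 (chr4:63362449-63365878) lie side by side on the plus strand, and their transcripts were 91.0% identical over 775 aligned bases. The start region of Orm2 (chr4:63362199-63362498, plus strand) is shown because Orm2 was the member of the pair that differed in liver. Capitals mark the palindromic C/EBP match at -120 and a TATA box, TATAAA, at -33. The letters TATAAA were in 2 of the 8 windows, Orm2 and Lrg1, against 13.6% of all windows. In Lrg1 they lay at 12, past the start site.
Orm2: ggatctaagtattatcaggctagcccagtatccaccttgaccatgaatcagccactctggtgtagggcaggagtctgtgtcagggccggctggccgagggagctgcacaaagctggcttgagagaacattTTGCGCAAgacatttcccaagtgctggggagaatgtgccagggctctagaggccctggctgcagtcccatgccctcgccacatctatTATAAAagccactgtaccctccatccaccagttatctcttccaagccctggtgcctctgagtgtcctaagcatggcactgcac

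Orm2 read 22.7, 29.0, 28.2, 27.2 and 24.6 in the air livers and 43.1, 40.2, 50.9, 51.3 and 45.9 in the benzene livers. The groups were far apart for their spread, and every benzene liver stood above every air liver. The mean went from 26.4 ± 2.63 to 46.3 ± 4.85, 1.76 times the air mean, a change of 0.79 ± 0.0982. Leaving out each library in turn moved it only from 0.74 to 0.84, the narrowest range among Saa1, Saa2, Saa3, Orm2 and Lcn2.

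Orm1, the abundant copy, read 977, 1286, 1312, 1308 and 1266 in air and 1247, 1043, 1297, 1583 and 1417 with benzene. The groups overlapped, and the change was 0.09 ± 0.105. Without air replicate 1, the low air liver, it was 0.01. Orm2 made up 1.91% to 2.27% of the sum of both genes in air and 3.14% to 3.77% with benzene, ranges that did not overlap. Near-identical copies can exchange reads in counting, so the level of each is less certain than their sum.

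Haptoglobin binds free haemoglobin, and macrophages take up the complex through Cd163. Hp (chr8:109575128-109579172, minus strand) was the most abundant member in liver. It read 2581, 3447, 3502, 3456 and 3553 in air and 3574, 3111, 3735, 3980.2 and 4070.0 with benzene. The change was 0.16 ± 0.0971, and 0.08 without air replicate 1. Lrg1 (chr17:56119678-56122001, minus strand) encodes a secreted leucine-rich glycoprotein that modifies TGF-β signalling in vessels. It read 415, 545, 535, 529 and 550.1 in air and 488, 442, 532, 497 and 576 with benzene. The groups overlapped, and the change was -0.02 ± 0.0879.

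The ratio of Hp to Lrg1 was steadier than either gene. It lay between 6.23 and 6.54 in the air livers and between 7.02 and 8.01 in the benzene livers, and the ranges did not overlap. Air replicate 1, the lowest liver for both genes, gave 6.23, close to the other air livers. The ratio of Saa3 to Saa1 overlapped, at 0.028 to 0.045 in air and 0.032 to 0.051 with benzene. How often the ratios of other gene pairs separated the groups was not tested.

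Lcn2 (chr2:32384633-32388252, minus strand) encodes lipocalin 2, which withholds iron from bacteria by binding their siderophores. Its start region (chr2:32387690-32387989, minus strand) is shown because Lcn2 differed in opposite directions in liver and lung. Capitals mark a C/EBP match at -216.
Lcn2: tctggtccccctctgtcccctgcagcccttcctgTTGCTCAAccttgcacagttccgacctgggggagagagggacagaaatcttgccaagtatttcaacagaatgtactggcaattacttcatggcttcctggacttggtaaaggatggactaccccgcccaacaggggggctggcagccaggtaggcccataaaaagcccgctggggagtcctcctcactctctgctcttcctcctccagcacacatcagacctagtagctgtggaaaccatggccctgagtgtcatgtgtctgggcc

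In liver, Lcn2 was the least abundant member per length. It read 2.19, 1.40, 1.85, 4.73 and 5.51 in the air livers, on 13 to 60 reads each, and 5.87, 4.81, 6.40, 7.69 and 5.58 in the benzene livers. The air livers split widely, with replicates 4 and 5 near the benzene values. Of the benzene livers, 4 of 5 stood above every air liver. The mean went from 3.14 ± 1.85 to 6.07 ± 1.07, a change of 0.87 ± 0.245.

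Across the 10 members in liver, Saa1, Saa2 and Orm2 were past the threshold and higher (limma-trend, adjusted p under 0.05 over all tested genes), where 0.819% of the 11968 tested genes were. Saa1 and Orm2 had every benzene liver above every air liver, as 2.07% of tested genes did. The genes were picked on this comparison, so nothing is read from these counts, or from calls kept or lost when a library was left out. The threshold lay between Saa2 inside it and Lcn2 and Saa3 outside it, whose changes were larger but whose SEs were larger too. Saa2 was not past it when any air replicate or benzene replicate 1 or 5 was left out, Lcn2 was past it without air replicate 5, and Saa3 was past it without benzene replicate 3. The median change was 0.41 for the members and 0.00 for all tested genes. Summed, the members took 4362 to 5774 in the air livers and 5067 to 6715 in the benzene livers, which is 0.446% to 0.566% and 0.535% to 0.658% of all reads. Most of that sum was Hp and Orm1, and the low members added little to it.

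In lung, all 5 members were lower in the benzene group. Saa3 had a lowest, median and highest value of 5.80, 7.68 and 27.0 in the air lungs and of 2.16, 3.22 and 5.37 in the benzene lungs. Every benzene lung stood below every air lung, and the highest air value was that of replicate 5. The mean was 10.5 ± 8.17 in air and 3.65 ± 1.28 with benzene (n = 6 and 6), a change of -1.15 ± 0.312. Without air replicate 5 the air mean was 7.24 ± 1.47 (n = 5) and the change -0.85 ± 0.183. The benzene lungs held 23 to 53 Saa3 reads each.

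Lrg1 ran from 93.3 over a median of 111 to 119 in the air lungs and from 65.8 over 69.2 to 83.2 in the benzene lungs. The groups did not overlap. The mean was 110.3 ± 9.21 in air and 71.8 ± 6.92 with benzene, a change of -0.61 ± 0.0847, and -0.66 ± 0.0721 without air replicate 5. Hp ran from 1462 over 1595 to 1663 in air and from 1042 over 1104 to 1286 with benzene, again with no overlap. Its mean was 1577 ± 81.2 in air and 1139.8 ± 105 with benzene, a change of -0.47 ± 0.0909, and -0.49 ± 0.0767 without air replicate 5. In liver, by contrast, the groups overlapped for both genes.

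Orm1 was the lowest member per length in lung. It ran from 2.57 over 5.28 to 6.90 in air and from 1.75 over 2.25 to 3.00 with benzene, on 16 to 71 reads per library. Of the benzene lungs, 5 of 6 stood below every air lung. The change was -0.82 ± 0.206, and -0.74 ± 0.194 without air replicate 5. Lcn2 ran from 104 over 137 to 161 in air and from 92.1 over 111 to 129 with benzene. The groups overlapped, with 2 of 6 benzene lungs below every air lung. Its mean was 132 ± 20.5 in air and 110.1 ± 13.7 with benzene, a change of -0.26 ± 0.115, and -0.26 ± 0.105 without air replicate 5.

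**Figure D2:**
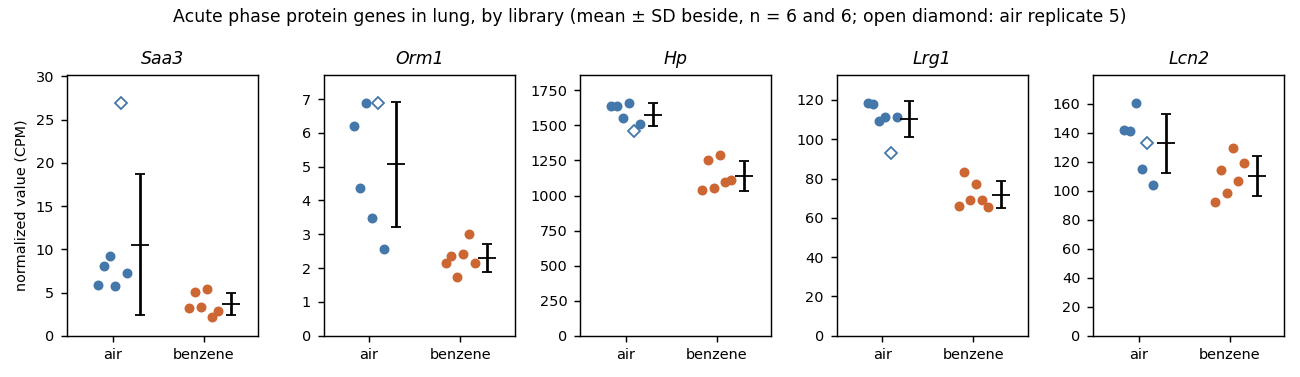
Normalized value (CPM) of the 5 genes read in lung, for each library, with the group mean ± SD beside the points (n = 6 air and 6 benzene); the open diamond is air replicate 5. Saa3, Hp and Lrg1 have every benzene lung below every air lung, and replicate 5 is the highest air lung for Saa3 and the lowest for Lrg1 and Hp.

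Of the 5 members in lung, all but Lcn2 were past the threshold and lower, where 2.29% of 15706 tested genes were, and 6.95% without air replicate 5. Saa3, Lrg1 and Hp had every benzene lung below every air lung, as 2.46% of tested genes did, and 4.07% without that replicate. Here too the comparison chose the genes, and nothing is read from the counts, or from calls kept or lost when a library was left out. Lrg1 and Hp stayed past the threshold with any 1 library left out. Orm1 did not when 1 of air replicates 1 to 3 or any benzene replicate but 5 was left out. Saa3 did not when air replicate 2, 3 or 6 or any benzene replicate but 4 was left out. The median change was -0.61 for the members and 0.01 for all tested genes. Summed, the members took 1722 to 1911 in the air lungs, 1735 to 1911 without air replicate 5, and 1205 to 1500.4 in the benzene lungs. The ratio of Hp to Lrg1 was 13.6 to 15.7 in air and 15.1 to 16.9 with benzene. The ranges overlapped through air replicate 5 alone, since the other 5 air lungs ran from 13.6 to 14.9.

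**Figure D3:**
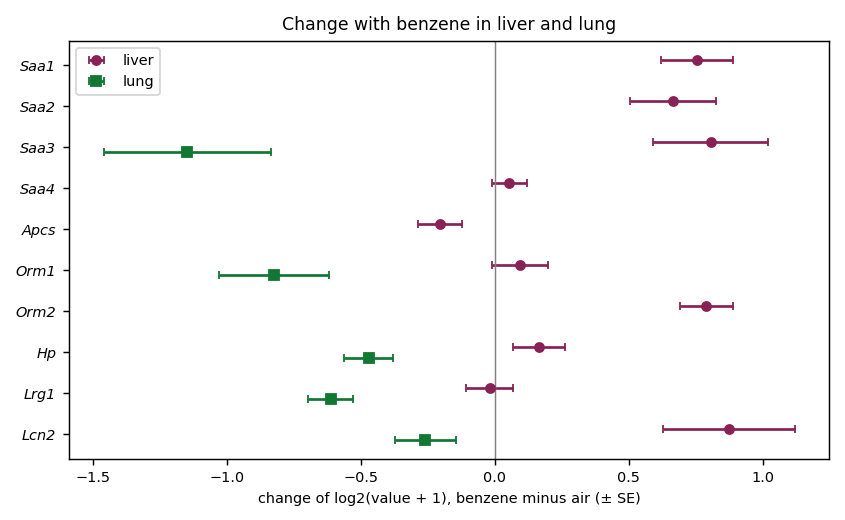
Change of log2(value + 1), benzene minus air, with its SE, for the 10 genes in liver (circles) and the 5 read in lung (squares). Saa3 and Lcn2 lie to the right of 0 in liver, at 0.81 and 0.87, and to the left of 0 in lung, at -1.15 and -0.26.

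The tables of liver and lung were normalized separately, so levels are set side by side only. In air, Orm1 stood 243 times higher in liver, Lrg1 4.67 times and Hp 2.10 times. Lcn2 stood 42.2 times higher in lung and Saa3 3.30 times, or 2.27 times without lung air replicate 5. Without it Orm1 stood 261 times, Lrg1 4.53 times and Hp 2.07 times higher in liver. Per kilobase of the principal transcript, the order of air levels in liver was Hp at 2459, Orm1 at 1587, Lrg1 at 366, Saa1 at 143, Saa4 at 87.2, Apcs at 74.4, Saa2 at 58.9, Orm2 at 34.0, Saa3 at 5.75 and Lcn2 at 3.43. Among neighbours in that order, only Apcs and Saa2, and Saa3 and Lcn2, had overlapping ranges over the 5 air livers. In lung the order per kilobase was Hp at 1173, Lcn2 at 145, Lrg1 at 78.3, Saa3 at 19.0 and Orm1 at 6.54, and no neighbours overlapped. Saa3 stood at 13.1 without air replicate 5, and the order was the same.

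Within groups, the members' deviations from their group means of log2(value + 1) hold nothing of the comparison that chose them. Over the 10 liver libraries, the 45 pairs had Pearson correlations from -0.71 to 0.95, with a median of 0.44. Saa1 went with Saa2 (0.95) and Saa3 (0.88), and Hp with Orm1 (0.94) and Lrg1 (0.94), while Saa4 ran against Lrg1 (-0.71). Beside these pairs stood a library-wide axis. The first component of all 8948 genes with a mean of at least 5 held 44.1% of the within-group variance, with benzene replicate 4 at one end and benzene replicate 2 and air replicate 1 at the other. Saa1 correlated with that component at 0.95, Saa2 at 0.91, Orm1 at 0.90, Apcs at 0.83, Saa3 at 0.82, Hp at 0.75, Orm2 at 0.63, Lrg1 at 0.50, Lcn2 at 0.33 and Saa4 at 0.06. Its part in the correlations was not tested.

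The 5 genes most like Saa1 within groups, among 8940 compared, were Mrps24 (0.99), Ndufb11 (0.99), Txn1 (0.99), Dlec1 (0.99) and Psmb8 (0.98). None is an acute phase gene, and none was past the threshold for benzene. Their changes ran from 0.06 ± 0.136 for Mrps24 to 0.43 ± 0.136 for Psmb8. For Psmb8 every benzene liver (35.1 to 62.2) stood above every air liver (26.6 to 34.7), as 2.07% of tested genes did. Mrps24, a mitochondrial ribosomal protein gene, read 46.9, 61.6, 53.9, 60.3 and 55.9 in air and 63.9, 46.2, 47.2, 84.2 and 54.7 with benzene, with benzene replicate 4 highest as for Saa1, and a change of 0.06 ± 0.136.

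In lung, over the 11 libraries without air replicate 5, the 10 pairs ran from 0.06 to 0.83 with a median of 0.50. The highest were Lrg1 with Hp (0.83) and Orm1 with Lcn2 (0.77). With all 12 libraries the pairs ran from -0.29 to 0.82, with a median of 0.26. The first component over the 11 libraries held 29.3% of the variance, and Hp (0.93) and Lrg1 (0.85) correlated with it most. With air replicate 5 it held 71.5%. The genes most like Saa3 over the 11 libraries, among 12696 compared, were Tuba8 (0.95), Marco (0.92), Sall2 (0.89), Alkbh7 (0.89) and Fam25c (0.89). Marco is a scavenger receptor of alveolar macrophages. Of the 5, Fam25c was past the threshold, higher with benzene where Saa3 was lower, with a change of 2.74 ± 0.445 (adjusted p = 0.00137 by limma-trend). Without air replicate 5 Marco was too, with a change of 0.42 ± 0.128 (adjusted p = 0.0312). With all 12 libraries their correlations were 0.71, 0.80, 0.72, 0.96 and 0.97.

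**Figure D4:**
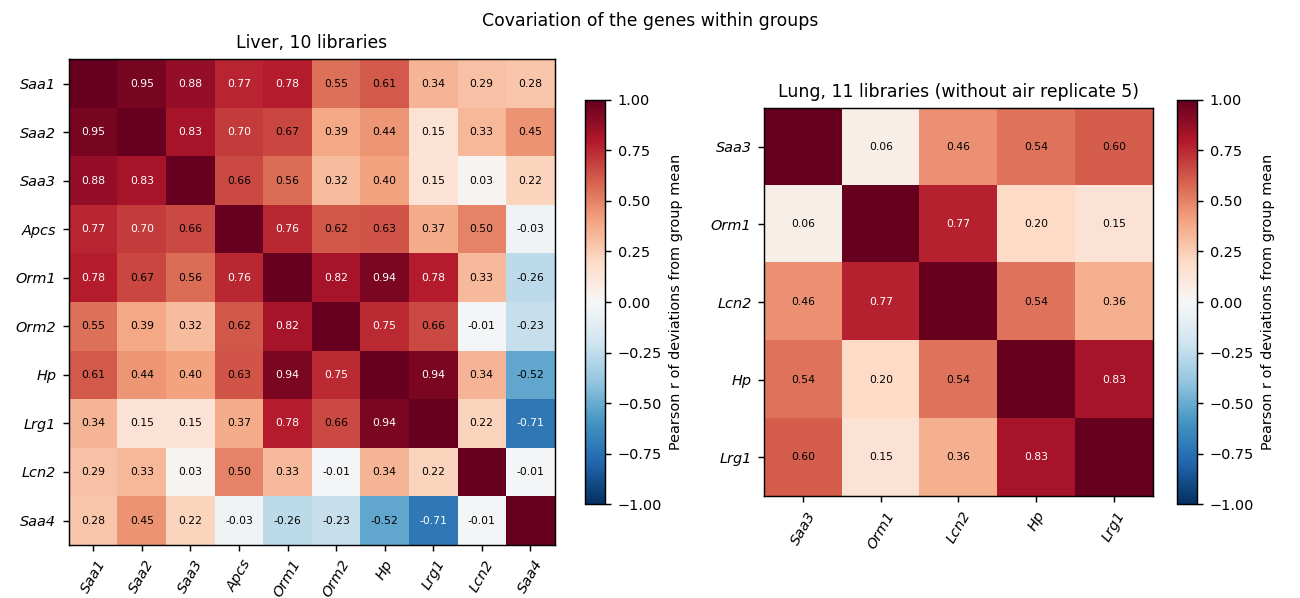
Pearson correlation between genes of deviations from the group mean of log2(value + 1), in 10 liver libraries (left) and 11 lung libraries (right, without air replicate 5). Saa1 and Saa2 reach 0.95 and Hp with Orm1 and with Lrg1 0.94 in liver, and Saa4 is negative with Lrg1 at -0.71.

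Other genes of the response were read from fixed lists. The lists were chosen with earlier results of these data known, so their counts are not a fresh test. Over all tested genes, 98 of 11968 in liver and 531 of 15706 in lung rose past the threshold, and 88 and 360 fell. Without lung air replicate 5, 2284 of 15659 lung genes passed in either direction, with 6.95% of all tested genes lower. Of 22 other positive acute phase genes tested in liver, none rose and 1 fell past the threshold (limma-trend, Benjamini-Hochberg adjusted p under 0.05), with 3 at an unadjusted p under 0.05 and 1 past it by edgeR and by DESeq2. The gene that fell was Hamp2, a hepcidin gene, from 35.8 ± 3.99 to 19.6 ± 6.48, a change of -0.88 ± 0.165 (adjusted p = 0.00725). The list's median change was 0.04. The fibrinogen genes Fga, Fgb and Fgg had changes of -0.13, 0.05 and 0.07, Crp of 0.04 and Serpina3n of -0.04, none past the threshold.

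Of 10 negative acute phase genes in liver, 1 fell, Serpina6, which encodes the corticosteroid-binding globulin, from 330.04 ± 14.7 to 244 ± 40.0, a change of -0.45 ± 0.0995 (adjusted p = 0.0286 by limma-trend). Its call was lost when any of air replicates 2 to 5 or benzene replicates 1 and 5 was left out, with an adjusted p of up to 0.102, and in plain CPM without further scaling (0.0555). Alb had a change of -0.32 ± 0.0951 (adjusted p = 0.124 by limma-trend). It read 72093 to 76157 in the air livers and 53298 to 65690 in the benzene livers. Of the 10 genes, 2 had an unadjusted p under 0.05 by limma-trend, Alb and Serpina6. By edgeR and by DESeq2, 2 of the 10 passed.

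The genes upstream gave few calls. In liver, of 9 cytokine and receptor genes 0 passed by limma-trend (1 at an unadjusted p under 0.05, 0 by edgeR, 1 by DESeq2), and of 19 signalling and transcription factor genes 0 passed (2 at an unadjusted p under 0.05, 0 by edgeR and DESeq2). The interleukin-6 receptor Il6ra had a change of -0.16, its partner Il6st of -0.13, Stat3 of -0.15 and the STAT3 target Socs3 of -0.11. Cebpb had a change of 0.28 (adjusted p = 0.373) and Cebpd of 0.34 (adjusted p = 0.444). Without benzene replicate 4 Il6st stood at -0.00071 and Cebpb at 0.17, and without benzene replicate 3 Socs3 stood at 0.01. Il1b, below the filter in liver, stood at 0.451 ± 0.293 in air and 1.34 ± 0.650 with benzene. Il6 and Tnf were not analysed here.

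Of 15 receptors and partners of the members tested in liver, 2 rose, where 0.819% of all tested genes did, and none fell. Hmox1, the haem oxygenase that breaks down haem, rose from 14.3 ± 0.985 to 27.5 ± 3.84, a change of 0.89 ± 0.113 (adjusted p = 0.000238 by limma-trend). Slc40a1, the iron exporter ferroportin, rose from 101 ± 9.22 to 143 ± 10.2, a change of 0.50 ± 0.0786 (adjusted p = 0.00155). The haptoglobin receptor Cd163 had a change of 0.23 ± 0.170 (adjusted p = 0.624).

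Macrophage markers stood higher in the same benzene livers. Of 9 macrophage and Kupffer cell markers, 5 rose, where 0.819% of all tested liver genes did, and none fell. Marco, Lyz2, Cd5l and Vsig4 had changes of 1.14, 1.05, 1.02 and 0.77 (adjusted p = 0.000261, 4.99e-05, 2.95e-05 and 0.00620 by limma-trend). The 9 markers summed to 94.2 to 104 in the air livers and 157 to 204 in the benzene livers, and none stood at 0 in any liver. Within groups that sum correlated with Saa3 at 0.91 and with Saa1 at 0.88 over the 10 livers. The library-wide component correlated with Saa3 at 0.82 and with Saa1 at 0.95. For the adipocyte marker sum the values were -0.87 and -0.91, and for the hepatocyte marker sum -0.72 and -0.58. Car3 dominated the adipocyte sum in liver, at 2447 ± 220 in air, where Cfd, Cidec and Adrb3 stood at 1.6, 3.0 and 5.2. That sum therefore followed 1 gene. The hepatocyte markers, 8 of 8, summed to 107760 to 113140 in air and 86543 to 99641 with benzene, and 0 passed by limma-trend (2 at an unadjusted p under 0.05, 1 by edgeR and by DESeq2). Alb dominated that sum, at 74088 ± 1705 in air and 59438 ± 4528 with benzene, and the list's median change was -0.10. The part of any of these cell types, or of the component, in the members' differences was not tested. Of 4 adipocyte markers in liver 0 passed by limma-trend (0 at an unadjusted p under 0.05, 0 by edgeR and by DESeq2). Neutrophil markers were not analysed in liver.

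In lung, of 17 other positive acute phase genes 1 fell, where 2.29% of all tested genes did, and none rose. Hamp, hepcidin, fell from 16.0 ± 3.68 to 9.01 ± 1.78, a change of -0.76 ± 0.165 (adjusted p = 0.0134 by limma-trend). With air replicate 5 left out, 4 fell and 2 rose, but calls over all tested genes also went from 891 to 2284. Of 6 negative acute phase genes, Fetub rose from 24.4 ± 14.0 to 47.4 ± 7.17, a change of 1.05 ± 0.235 (adjusted p = 0.0159), or 1.29 ± 0.111 without air replicate 5, when Rbp4 also fell (-0.31). Of 14 cytokine and receptor genes, Tlr2 rose from 13.5 ± 1.38 to 18.7 ± 1.56 (adjusted p = 0.0160), which lost its call when benzene replicate 1 was left out (adjusted p = 0.0522). Il1a rose as well (0.65) when air replicate 5 was left out.

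Of 18 signalling and transcription factor genes in lung, 1 rose and 2 fell, where 531 and 360 of 15706 tested genes did. The kinase gene Jak1 rose with a change of 0.40 ± 0.0831 (adjusted p = 0.0104 by limma-trend). Bcl3, a nuclear partner of NF-κB, fell from 20.2 ± 2.74 to 12.9 ± 1.46, a change of -0.61 ± 0.112 (adjusted p = 0.00431), and Nfkb2 from 45.2 ± 3.94 to 34.6 ± 1.76, a change of -0.37 ± 0.0792 (adjusted p = 0.0115), a call lost in plain CPM (adjusted p = 0.0851). Without air replicate 5 Jak1, Bcl3 and Nfkb2 stood at 0.34, -0.62 and -0.34, all past the threshold. Stat3 had a change of -0.44 ± 0.241, Cebpb of -0.41 ± 0.257 and Cebpd of 0.17 ± 0.0966, none past the threshold. Without air replicate 5 Stat3 stood at -0.17 ± 0.0730 and Cebpb at -0.13 ± 0.0951, and Cebpd was past it, higher (0.23 ± 0.0742, adjusted p = 0.0392), as it was in plain CPM (0.0318). Il6ra, Il6st, Il1b, Socs3 and Nfkbia had changes between -0.04 and 0.11, or between -0.09 and 0.06 without it. Of 17 receptors and partners, the scavenger receptor gene Cd36 rose from 845 ± 61.4 to 1099 ± 60.5 (adjusted p = 0.0134). The list gave 2 that rose and 1 that fell without air replicate 5, where 2284 of all 15659 tested genes passed in either direction.

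Neutrophil markers were lower in the benzene lungs, beside Lcn2, Lrg1 and Hp, which neutrophils and their precursors also make. Of 9 tested, 4 fell, where 2.29% of all tested lung genes did, and none rose. Without air replicate 5 it was 7, where 6.95% of all tested genes fell, and none. Ltf, lactoferrin, fell from 224 ± 30.3 to 104 ± 10.8, a change of -1.10 ± 0.103 (adjusted p = 5.19e-06 by limma-trend). Retnlg, Cd177 and Cxcr2 had changes of -0.74, -0.67 and -0.56 (adjusted p = 0.00886, 0.0179 and 0.0163), and Cd177 lost its call without benzene replicate 5 or 6 (adjusted p = 0.0553 and 0.0552). In plain CPM the calls of Cd177 and Cxcr2 were lost (adjusted p = 0.0817 and 0.0711). The 9 markers summed to 390.1 to 569 in the air lungs and 250.3 to 308 in the benzene lungs, and to 390.1 to 519 in the air lungs without replicate 5, with none at 0 in any library. Ltf, at 224 ± 30.3 in air, weighed most in that sum and in its fall, with S100a9 next at 89.4 ± 18.7. How the sum behaved without Ltf was not tested. Camp, Ngp, Mpo, Elane and Ly6g, the other 5 of the 14 listed, were not analysed here. Over the 11 libraries without air replicate 5, the sum correlated within groups with Lcn2 at 0.74, Lrg1 at 0.73, Orm1 and Hp at 0.64 and Saa3 at 0.45. Over all 12 it was 0.63, 0.11, 0.72, 0.29 and 0.68. For the lung epithelial marker sum the values in that order, over the 11 libraries, were 0.80, 0.77, 0.52, 0.90 and 0.66. Those were higher than for the neutrophil sum in all but Orm1. Over all 12 libraries the epithelial values were 0.44, -0.23, 0.61, 0.13 and 0.91. The adipocyte marker sum correlated with Saa3 at 0.65 over the 11. The part of neutrophils in the members' differences was not tested.

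Other cell markers also differed between the lung groups. All 7 squamous epithelial markers tested rose, where 531 of 15706 tested genes did. Their sum was 218 to 317 in air and 3216 to 3553 with benzene. Krt4, Sprr3, Krt13 and Sprr1a had changes of 3.70, 3.70, 3.60 and 3.54. Of 8 lung epithelial markers 2 fell, Scgb3a1 and Scgb3a2, and of 8 adipocyte markers 2 fell, Lep and Retn, with adipocyte sums of 579 to 789 in air and 549 to 675 with benzene. Both Scgb3a genes lost their calls when 1 of air replicates 1 to 3 or any benzene replicate but 4 was left out (adjusted p up to 0.119 by limma-trend), and Retn lost its call when air replicate 2 or 3, or 1 of benzene replicates 1 to 3, was left out (up to 0.0704). Without air replicate 5 the Scgb3a1 change went from -1.10 to -0.82 and the Scgb3a2 change from -1.04 to -0.79, both past the threshold, and Lep did not pass the filter on low values. Adipocytes and epithelia can make Saa3 and Lcn2, and their part in the differences was not tested. Of 7 macrophage markers in lung 0 passed by limma-trend (2 at an unadjusted p under 0.05, 0 by edgeR and DESeq2), and without air replicate 5 Marco rose and Cd5l fell.

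**Figure D5:**
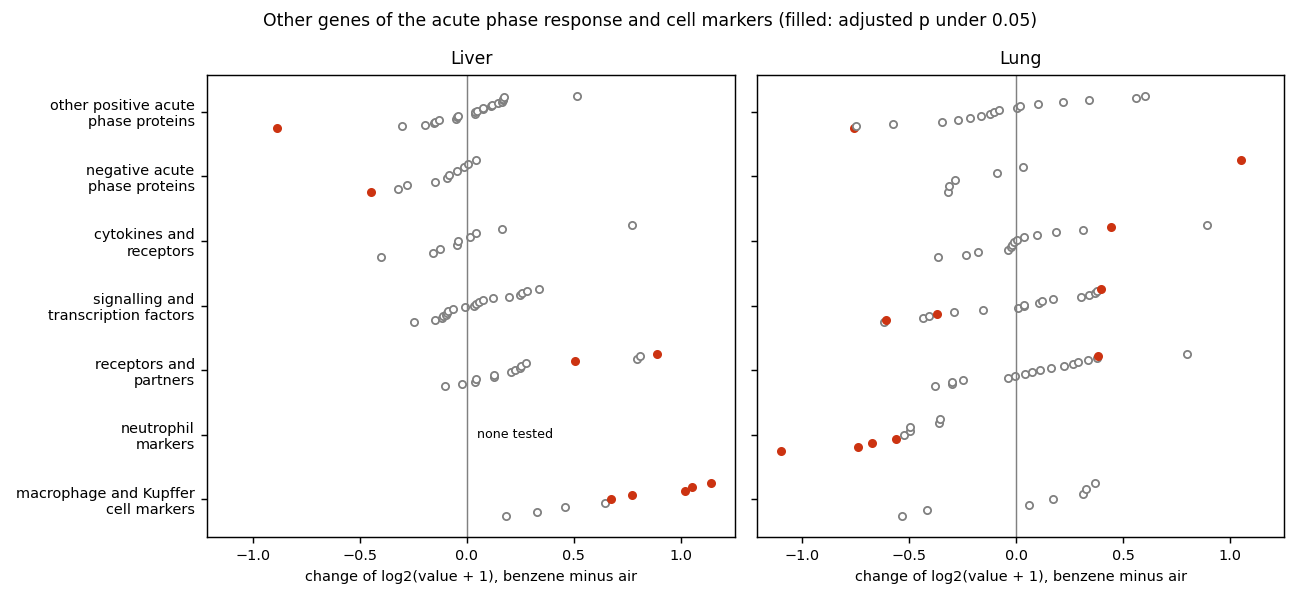
Change of log2(value + 1), benzene minus air, for each tested gene of 7 fixed lists in liver (left) and lung (right); filled points have an adjusted p under 0.05. In liver 5 macrophage markers are filled and higher, and in lung 4 neutrophil markers are filled and lower.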

How the data were processed

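Per the submitters' processing notes, fastp 0.20.0, STAR and edgeR 3.10 were used with GRCm38; these sources do not state the read counter, annotation or gene filter. The deposited values are normalized signal that the authors headed CPM. Each was a whole number of reads over 1 factor per library, in 100% of values within 0.01 read, so read counts were recovered. The liver benzene columns are headed T by the authors and were read as the benzene group.

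Testing was limited to genes that reached 1 in 5 libraries (liver) or 6 (lung) and used limma-trend (limma 3.58.1, R 4.3.3) on log2(value + 1), each tissue apart, with Benjamini-Hochberg adjustment over all tested genes. On the recovered reads, edgeR 4.0.16 called 197 liver and 871 lung genes, and limma-trend 186 and 891. DESeq2 1.42.0 was a further alternative. The fits and the likeness ranking were tested on simulated data. The members and lists were chosen with earlier results of these data known.

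Named genes were the members, up to 4 genes past the threshold per list and tissue with the largest change, 10 regulators whatever their result, and the 5 most like Saa1 in liver and Saa3 in lung. Others were named after their values were seen, namely Alb, Sftpc, Rbp4, Il1a, Cd5l in lung, Fga, Fgb, Fgg, Crp, Serpina3n and Cd163. Gene positions and transcript lengths came from GENCODE M21 (GRCm38), promoters from RefSeq (GRCm38.p6), where 8 of 10 members matched. Python 3.11.15 with pandas 2.3.3 made the tables. Counting intervals are not given. Read numbers are printed for the low members Saa3 and Lcn2 in liver and Saa3 and Orm1 in lung, and not for other low genes.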

Additional observations from a re-analysis of the deposited data

Results flagged for a closer look

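In a search of 30 groups of member values for a library far from the rest, where chance gives about 1 in 20, 6 were found. Liver air replicate 1 was low for Orm1 at 977, with the other air livers between 1266 and 1312, for Lrg1 at 415, with the others between 529 and 550.1, and for Hp at 2581, with the others between 3447 and 3553. Liver benzene replicate 4 was high for Apcs at 73.8, with the others between 58.2 and 62.7. Lung air replicate 5 was high for Saa3 at 27.0, with the others between 5.80 and 9.22, and low for Lrg1 at 93.3, with the others between 109 and 119.

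Saa3 and Lcn2 differed in opposite directions in the tissues. Every benzene liver stood above the liver air mean and every benzene lung below the lung air mean for both genes. The changes were 0.81 in liver and -1.15 in lung for Saa3, and 0.87 and -0.26 for Lcn2. As reported, Lcn2 was past the threshold in neither tissue and Saa3 only in lung. The genes were picked because several were higher in liver and some lower in lung, so nothing is read from these opposite directions. The difference between the tissues was not tested.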

How the results depend on the processing

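Changing the filter on low values or adding a block for replicate number cannot move a member's change, so those alternatives were bound to match. Of 277 alternative values of the members' changes, these included, 276 lay within 1 SD of the reported ones, though calls could still shift. The exception was Hp in lung, -0.35 in plain CPM without further scaling, which moved the median of all lung genes to 0.12. Under it lung calls split into 732 higher and 221 lower (531 and 360 as reported) and liver calls into 124 and 66 (98 and 88). No direction of a called gene reversed. DESeq2 called 318 liver and 1669 lung genes, against 186 and 891. Leaving out 1 library gave 98 to 271 calls in liver and 502 to 2284 in lung. In liver the count moved by over 1.5 times without air replicates 2 (101), 3 (105), 4 (98) and 5 (110) and benzene replicates 1 (109) and 5 (113), and in lung without air replicate 5 (2284) and benzene replicates 1 (502), 3 (539), 5 (536) and 6 (534). List genes past the threshold ran from 8 to 12 in liver (9 as reported) and from 18 to 38 in lung (22), with 38 without air replicate 5.

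The replicate numbers did not pair the samples: same-numbered deviations correlated between -0.21 and 0.24 in liver and between -0.39 and 0.14 in lung, and 1 of 5 and 0 of 6 were best with their own number. With the replicate block 146 liver and 414 lung genes and 11 lung list genes were called, and Hp, Orm1 and Saa3 in lung were not past the threshold. Of the named lung genes, the block ended the calls of Bcl3 (adjusted p = 0.0632), Nfkb2 (0.104), Jak1 (0.0720), Cd36 (0.125), Hamp (0.0622), Tlr2 (0.0859), Cxcr2 (0.0724), Retnlg (0.0833), Retn (0.0860), Scgb3a1 (0.0841) and Scgb3a2 (0.116). In plain CPM, Hp was not past it in lung. Nor was Saa2 in liver with a pseudocount of 0.1 or, like Saa3 in lung, with genes of a mean under 5 left out; Saa3 in liver was past it by DESeq2. The causes of these shifts were not tested. Saa3 and Lcn2 in liver and Orm1 in lung are limited by reads.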
